A study of Eumeta variegata with 6 samples.

Results

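Antioxidant enzymes and the enzymes that make and break down glutathione were examined in male and female heads of Eumeta variegata, a bagworm moth also called Clania variegata in the labels. A sequence was included when its NR or Swiss-Prot description named superoxide dismutase, catalase, peroxiredoxin, glutathione peroxidase, thioredoxin, thioredoxin reductase, methionine sulfoxide reductase, glutamate--cysteine ligase, glutathione synthetase, gamma-glutamylcyclotransferase or gamma-glutamyltranspeptidase. This gave 50 of the 41283 assembled sequences in the table, in 11 families. NR descriptions matched for 46 of them and Swiss-Prot descriptions for 38, with 34 matched by both, and 40 of the NR matches came from the related moth Eumeta japonica. Each of the 50 had its own gene identifier in the assembly, 23 with a name ending in 1 and 27 in 2, but they carried only 35 distinct names, and 4 sequences were called Peroxiredoxin 1. Names rest on similarity to proteins of other species, and near-identical copies may share reads.

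RNA of the head was sequenced in 3 male and 3 female samples, and the only contrast was male against female. The labels name no strain, treatment, age or stage, nor whether each sample was a single animal or a pool. The p-values thus reflect the spread among these 6 samples alone, part of which may be technical. Levels are given as FPKM, which divides fragment counts by sequence length and library total, so levels of different sequences can be set side by side.

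Cells produce superoxide mainly as a by-product of respiration. Superoxide dismutases turn it into hydrogen peroxide, which catalase, peroxiredoxins and glutathione peroxidases remove. Peroxiredoxins draw their electrons from thioredoxin, which is recharged by thioredoxin reductase, and mammalian glutathione peroxidases draw theirs from the tripeptide glutathione. Drosophila lacks a glutathione reductase, and its thioredoxin system also keeps glutathione reduced. Glutathione is made by glutamate--cysteine ligase and glutathione synthetase in turn, and it is taken apart by gamma-glutamyltranspeptidases outside cells and by glutathione-specific gamma-glutamylcyclotransferases inside them.

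The sequences spanned a wide range of levels, with mean FPKM over the 6 libraries between 0.192 and 745. A mean of at least 100 was reached by 7 sequences, 26 lay between 10 and 100, 14 between 1 and 10, and 3 below 1. The median of the 46 that passed the filter on low values (1 FPKM or more in 3 or more libraries) was 25.2, against 2.51 for all 35198 sequences that passed. The 5 most abundant were a mitochondrial thioredoxin, thioredoxin-2, thioredoxin domain-containing protein 2, a sequence named superoxide dismutase [Cu-Zn] 5 and catalase. Together they held 61.7% to 64.1% of the summed level in each library. That sum was 3280, 3151 and 3154 FPKM in males 1 to 3 and 3494, 3342 and 3203 FPKM in females 1 to 3, and the sexes overlapped.

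**Figure D1:**
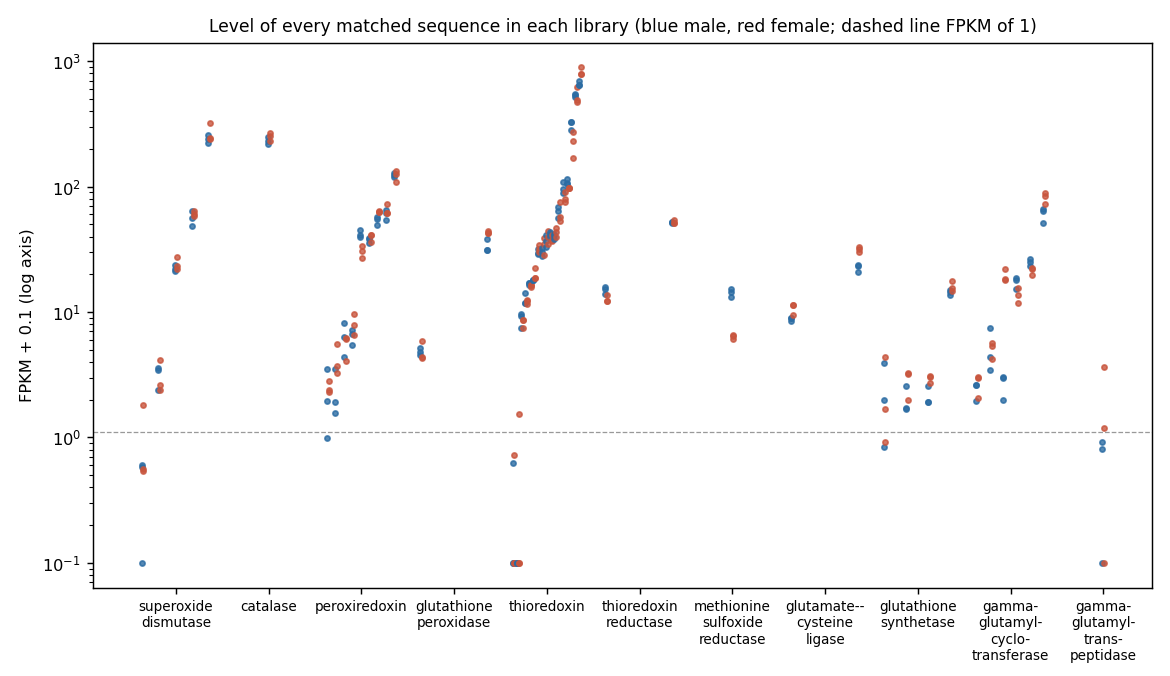
FPKM of each of the 50 sequences in each library (vertical axis, log scale, with 0.1 added so that values of 0 can be drawn), by family and in order of mean level within a family; blue points are the 3 male and red points the 3 female libraries. Thioredoxin holds both the highest sequences and the lowest, and in most columns blue and red points lie close together.

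Sexes were compared on log2(FPKM + 1) with limma's moderated test, and p-values were adjusted over all 35198 sequences by the Benjamini-Hochberg method. A fold change is given as males minus females, so a negative value is a higher level in females, and the scale understates the change of low sequences. Of the 46 tested, 4 passed an adjusted p of 0.05, where 7.11% of all tested sequences did. A gamma-glutamylcyclotransferase and the regulatory subunit of glutamate--cysteine ligase were higher in females (2.7% of all tested sequences were called in that direction). A peptide methionine sulfoxide reductase and peroxiredoxin-4 were higher in males (4.4% in that direction). The share called, 8.70%, was close to that of all sequences and below the 12.0% of all 11250 tested sequences with a protein name. At a mean FPKM of 10 or more, 4 of 33 passed (12.1%), below the 19.0% of all 6108 such sequences. Under 10 FPKM, 0 of 13 passed, against 4.62% of all such sequences. With median-of-ratios scaling the calls over all sequences moved from 61.9% higher in males to 49.8%, and 4 of the 46 passed, with peroxiredoxin-4 lost and a glutathione-specific gamma-glutamylcyclotransferase gained on the female side. In whole heads, fewer cells of a type and less RNA per cell cannot be told apart.

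Most of these sequences differed little between the sexes. The median absolute log2 fold change was 0.14, against 0.18 for all sequences whose mean FPKM was 10 or more and 0.31 for all tested. The 95% interval of the difference lay within 0.5 log2 units of 0 for 27 of the 46 and within 1 unit for 41. Male and female values did not overlap for 15, where 30.2% of all tested sequences had no overlap. At a mean FPKM of 10 or more, 39.4% of the 33 had no overlap, against 48.1% of all such sequences. In 6 of the 15 the males were above and in 9 the females, and the shares over all tested sequences were 18.2% and 12.0%. The sign was negative for 28 of the 46 and positive for 18, with a median of -0.10 against 0.05 over all tested, and with median-of-ratios scaling 35 were negative. The unadjusted p was below 0.05 for 15, the 4 that passed included, where 23.3% of all tested sequences were below it.

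**Figure D2:**
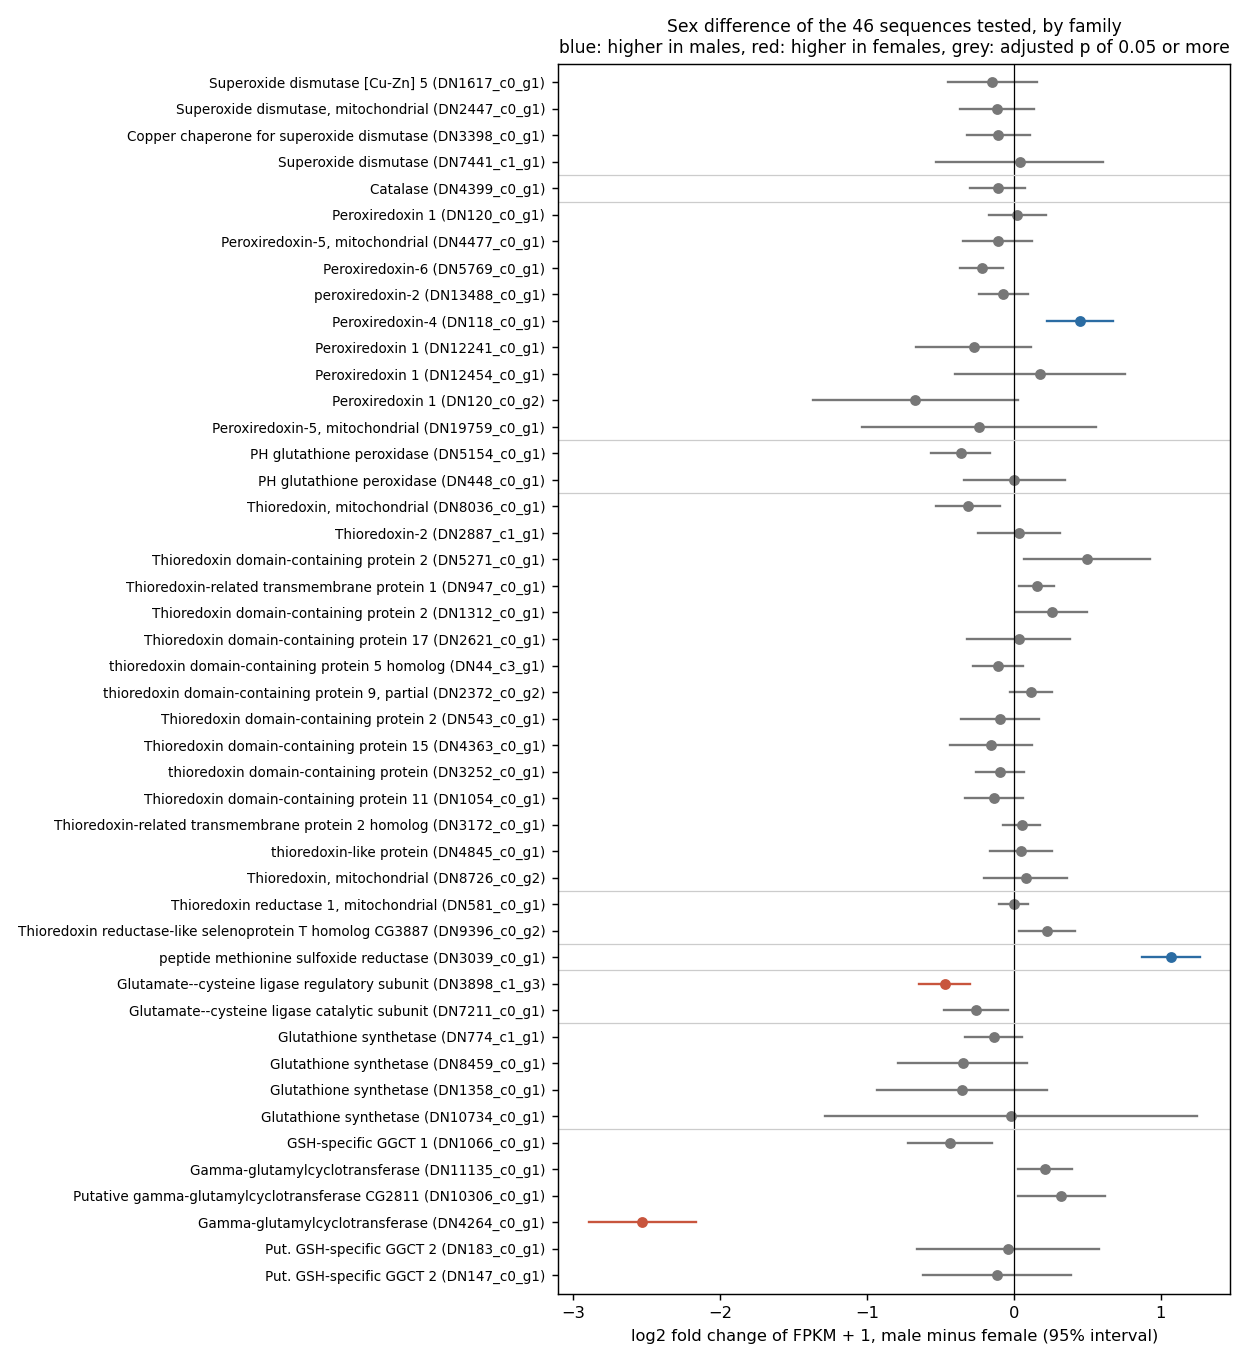
Sex difference of the 46 tested sequences on the log2(FPKM + 1) scale, male minus female, with its 95% interval (horizontal axis), grouped by family; GGCT is gamma-glutamylcyclotransferase, GSH glutathione and PH phospholipid hydroperoxide. The gamma-glutamylcyclotransferase DN4264 stands at -2.53 and the methionine sulfoxide reductase at 1.07, whereas 31 of the 46 lie within 0.25 of 0.

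None of the 4 tested superoxide dismutase and chaperone sequences passed the test. The most abundant, DN1617, had an FPKM of 241.7, 224 and 259.6 in males 1 to 3 and of 322, 245 and 242 in females 1 to 3. Female 1 was the highest and the other libraries overlapped (log2 fold change -0.15, 95% interval -0.45 to 0.16). Its name came from a Dictyostelium discoideum entry in Swiss-Prot, its NR match was a hypothetical protein of the beetle Gonioctena quinquepunctata, and it carried no protein domain in the authors' annotation, so its identity as a superoxide dismutase is uncertain. The mitochondrial superoxide dismutase, which works on superoxide made by the respiratory chain, had an FPKM of 56.2, 48.2 and 63.9 in males and 57.7, 63.5 and 60.3 in females. The sexes overlapped, at a log2 fold change of -0.11 (interval -0.36 to 0.14). The copper chaperone DN3398, which loads copper into the Cu/Zn enzyme, lay between 21.1 and 27.2 FPKM in the 6 libraries. Another sequence named superoxide dismutase (DN7441) lay between 2.27 and 4.07 FPKM. A second copper chaperone sequence reached an FPKM of 1 only in female 1, at 1.72, and was not tested.

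Catalase, the peroxisomal enzyme that splits hydrogen peroxide, was represented by 1 sequence. Its FPKM was 247, 232 and 219.9 in males and 231, 269.5 and 255 in females. The sexes overlapped and the difference was small, with a log2 fold change of -0.11 (95% interval -0.30 to 0.08, limma adjusted p = 0.47).

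Peroxiredoxins were measured as 9 sequences, of which 1 was higher in males and 8 did not pass. Peroxiredoxin-4 (TRINITY_DN118_c0_g1_i3_1), which in mammals resides in the endoplasmic reticulum and removes peroxide made during protein folding, had an FPKM of 41.0, 39.7 and 44.8 in males 1 to 3. In females 1 to 3 it had 33.8, 30.7 and 26.9. Every male was above every female, and the mean was 41.9 ± 2.66 in males and 30.5 ± 3.45 in females (SD, n = 3 each), 1.37-fold higher in males. On the log2 scale the difference was 0.45 (SE 0.09, 95% interval 0.23 to 0.67, limma adjusted p = 0.040). This call stood only just inside the threshold. Median-of-ratios scaling ended it (adjusted p = 0.085), as did leaving out any library other than female 1 (adjusted p = 0.11, 0.099 and 0.12 without males 1, 2 and 3, and 0.10 and 0.076 without females 2 and 3).

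The most abundant peroxiredoxin was Peroxiredoxin 1 (DN120_c0_g1), a cytosolic enzyme in Drosophila. It had an FPKM of 124, 119.9 and 128 in males and 109, 133 and 126 in females, with overlap and a log2 fold change of 0.02 (95% interval -0.17 to 0.22), whose sign turned with median-of-ratios scaling. Peroxiredoxin-6, whose mammalian form also reduces phospholipid peroxides, had 57.4, 49.7 and 55.1 FPKM in males and 63.7, 63.0 and 62.3 in females. Females were above males without overlap, but the difference of -0.22 (SE 0.06) did not pass (limma adjusted p = 0.088). The mitochondrial peroxiredoxin-5 (DN4477) lay between 53.8 and 72.5 FPKM and peroxiredoxin-2 between 35.5 and 41.2, each with overlap. The other 3 Peroxiredoxin 1 sequences and a second peroxiredoxin-5 were below 10 FPKM in every library. Among them DN120_c0_g2 had the widest difference of the family, with 1.82, 3.44 and 1.47 FPKM in males and 5.50, 3.58 and 3.18 in females. Male 2 overlapped with the females, and the log2 fold change of -0.67 (SE 0.29) did not pass (limma adjusted p = 0.23).

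Both glutathione peroxidase sequences were named phospholipid hydroperoxide glutathione peroxidase, a form that reduces lipid peroxides within membranes and in mammals guards against ferroptosis. The more abundant, DN5154, had an FPKM of 31.4, 31.0 and 37.9 in males and 44.6, 42.4 and 42.4 in females. All females were above all males, and the mean was 33.4 ± 3.84 in males and 43.1 ± 1.26 in females (SD, n = 3 each). The log2 fold change of -0.36 (SE 0.08, 95% interval -0.56 to -0.16) lay just outside the threshold (limma adjusted p = 0.055). Without male 3, the male with the highest value, it was -0.45 and passed (limma adjusted p = 0.027). The second sequence lay between 4.23 and 5.80 FPKM with overlap.

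The thioredoxin group was the largest and the most abundant, with 17 sequences whose levels summed to 1955 to 2185 FPKM per library, and none of the 15 tested passed. Of these, 3 were named thioredoxin, the small protein that passes electrons to peroxiredoxins and other targets. The mitochondrial thioredoxin DN8036 was the highest of all 50 sequences, at 699, 649 and 646 FPKM in males and 893, 798 and 787 in females. The sexes did not overlap, and the mean was 664 ± 30.0 in males and 826 ± 58.1 in females (SD, n = 3 each). Its log2 difference of -0.31 (SE 0.09) did not pass (limma adjusted p = 0.099). Thioredoxin-2, the main cytosolic thioredoxin of Drosophila, had 552, 523 and 540.5 FPKM in males and 622, 495 and 471 in females. Here the females lay on both sides of the males, the log2 fold change was 0.03 (95% interval -0.25 to 0.32), and its sign turned with median-of-ratios scaling. The other one, DN8726, also named mitochondrial thioredoxin, lay between 7.36 and 9.49 FPKM.

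The remaining 14 sequences of the group were named for a thioredoxin domain or as thioredoxin-related, and such proteins do not all act as antioxidants. Thioredoxin domain-containing protein 2 was the name of 3 sequences, given by NR alone. They had no Swiss-Prot match and no protein domain in the authors' annotation. The most abundant of them was DN5271. It had 329.7, 329 and 281 FPKM in males and 169.9, 274 and 233 in females. Males were above females without overlap, but the females spread widely, and the log2 fold change of 0.50 (SE 0.18) did not pass (limma adjusted p = 0.16). Thioredoxin-related transmembrane protein 1, an oxidoreductase of the endoplasmic reticulum membrane in mammals, had 104, 114 and 107 FPKM in males and 97.1, 97.4 and 97.5 in females. Males were above females, with a log2 difference of 0.15 (SE 0.05, limma adjusted p = 0.12). Both sequences named thioredoxin domain-containing protein 6 were near 0: DN11101 was listed above 0 only in female 1, at 1.42 FPKM, and DN16103 only in male 3 and female 2, at 0.53 and 0.622.

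Thioredoxin reductase 1, which recharges thioredoxin with electrons from NADPH, had the smallest standard error of the 46 differences (0.04 log2 units). Its FPKM was 52.1, 52.3 and 51.5 in males and 50.9, 51.6 and 53.7 in females. The sexes overlapped, and the 95% interval of the log2 fold change ran from -0.10 to 0.10. The thioredoxin reductase-like selenoprotein T homolog, named for an endoplasmic reticulum protein, had 15.8, 13.7 and 15.2 FPKM in males and 12.1, 13.5 and 12.2 in females. The males were above the females without overlap, but the log2 fold change of 0.23 (SE 0.08) did not pass (limma adjusted p = 0.15).

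Methionine sulfoxide reductases repair methionine residues that oxidants have damaged, using thioredoxin as the electron source. The 1 sequence of the family, named peptide methionine sulfoxide reductase (TRINITY_DN3039_c0_g1_i1_1), was higher in males. Its FPKM was 15.2, 13.1 and 14.3 in males 1 to 3 and 6.29, 5.95 and 6.46 in females 1 to 3. Every male was above every female by a wide margin, with means of 14.2 ± 1.04 and 6.23 ± 0.261 (SD, n = 3 each), 2.28-fold higher in males. This was a log2 fold change of 1.07 (SE 0.08, 95% interval 0.87 to 1.27, limma adjusted p = 0.0026).

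Glutathione synthesis was represented by 6 tested sequences, of which 1 passed. Their median log2 fold change was -0.30 and all 6 values were negative, but 1 of them (DN10734, a glutathione synthetase) was at -0.02 with an SE of 0.52. With the library split as a term, without male 3 or without female 3, 5 of the 6 were negative. The regulatory subunit of glutamate--cysteine ligase (TRINITY_DN3898_c1_g3_i1_2), which raises the activity of the catalytic subunit at the rate-limiting step, had 23.8, 23.4 and 20.6 FPKM in males and 30.1, 33.1 and 31.8 in females. The sexes did not overlap, and the mean was 22.6 ± 1.72 in males and 31.7 ± 1.5 in females (SD, n = 3 each), 1.40-fold higher in females. The log2 fold change was -0.47 (SE 0.07, 95% interval -0.64 to -0.30, limma adjusted p = 0.016). Leaving out male 2, female 2 or female 3 ended the call (limma adjusted p = 0.056, 0.063 and 0.056). Its name came from Swiss-Prot alone, beside an aldo/keto reductase domain, and its NR match was unnamed.

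The catalytic subunit of glutamate--cysteine ligase had 8.89, 8.45 and 8.87 FPKM in males and 9.40, 11.2 and 11.4 in females. Females were above males without overlap, at a log2 fold change of -0.26 (SE 0.09) that did not pass (limma adjusted p = 0.16). The level of the regulatory subunit divided by that of the catalytic subunit was 2.68, 2.76 and 2.32 in males and 3.2, 2.94 and 2.8 in females. Females were above males in this ratio as well, by a narrow gap (2.8 in female 3 against 2.76 in male 2). The exact two-sided permutation p was 0.1, the smallest that 3 against 3 allows, with no adjustment for the 2 ratios compared. The regulatory subunit was already called in these libraries, with a larger difference than the catalytic subunit (-0.47 against -0.26). The ratio in part restates that call, and its p adds no support. Glutathione synthetase, the second enzyme, was the name of 4 sequences. The most abundant, DN774, had 13.6, 14.4 and 14.9 FPKM in males and 17.5, 15.5 and 14.7 in females, with overlap. The other 3 were below 5 FPKM in every library, and DN1358 had the widest difference, at 1.62, 2.48 and 1.59 FPKM in males and 1.90, 3.09 and 3.15 in females (log2 fold change -0.35, SE 0.24).

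Gamma-glutamylcyclotransferases were measured as 6 sequences, 1 higher in females and 5 that did not pass. Enzymes of this name release 5-oxoproline from gamma-glutamyl compounds, and the glutathione-specific, ChaC-like ones cut glutathione itself. The sequence TRINITY_DN4264_c0_g1_i2_2 had an FPKM of 1.90, 2.92 and 2.86 in males 1 to 3 and of 17.9, 22 and 18.4 in females 1 to 3. All females were far above all males, with means of 2.56 ± 0.573 in males and 19.4 ± 2.26 in females (SD, n = 3 each), 7.59-fold higher in females. The log2 fold change was -2.53 (SE 0.15, 95% interval -2.89 to -2.16, limma adjusted p = 0.0015).

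A second sequence with the same description and the same KEGG orthology group was TRINITY_DN11135_c0_g1_i1_1, whose identifier ends in 1 where that of DN4264 ends in 2. It had 23.4, 26.6 and 24.7 FPKM in males and 22.1, 22.5 and 19.6 in females. Here the males were above the females without overlap, and the log2 fold change of 0.21 (SE 0.08) did not pass (limma adjusted p = 0.16). The level of DN4264 divided by that of DN11135 was 0.0812, 0.110 and 0.115 in males and 0.809, 0.980 and 0.939 in females. DN4264 thus stood at about the level of DN11135 in females and well under it in males (log2 difference of the ratio -3.17). The exact two-sided permutation p was 0.1, the smallest possible, with no adjustment for the 2 ratios. Because DN4264 was higher in every female and DN11135 in every male, the ratio had to separate the sexes. Its p therefore adds no support. Putative gamma-glutamylcyclotransferase CG2811, named for a Drosophila gene, lay between 15.2 and 18.7 FPKM in males and between 11.7 and 15.6 in females, with overlap.

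Of the glutathione-specific enzymes, DN1066 (glutathione-specific gamma-glutamylcyclotransferase 1, with a ChaC-like domain) was the most abundant of the family, at 66.2, 63.6 and 51.6 FPKM in males and 72.3, 84.4 and 89.5 in females. Females were above males without overlap. The log2 fold change of -0.44 (SE 0.12) did not pass (limma adjusted p = 0.085), but with median-of-ratios scaling it was -0.51 and passed (limma adjusted p = 0.043). The remaining pair of the type lay between 1.84 and 7.38 FPKM with overlap. Summed over the 6 sequences, the level was 107.8 to 115 FPKM in males and 136 to 151 FPKM in females. DN1066 alone held 55.5% of this sum. Of the 6, 4 had a log2 fold change below 0 and 2 above, with a median of -0.08. The 1 gamma-glutamyltranspeptidase sequence was listed at 0 in male 3 and female 2, at 0.709 and 0.813 FPKM in males 1 and 2, and at 3.56 and 1.09 FPKM in females 1 and 3, and was not tested.

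**Figure D3:**
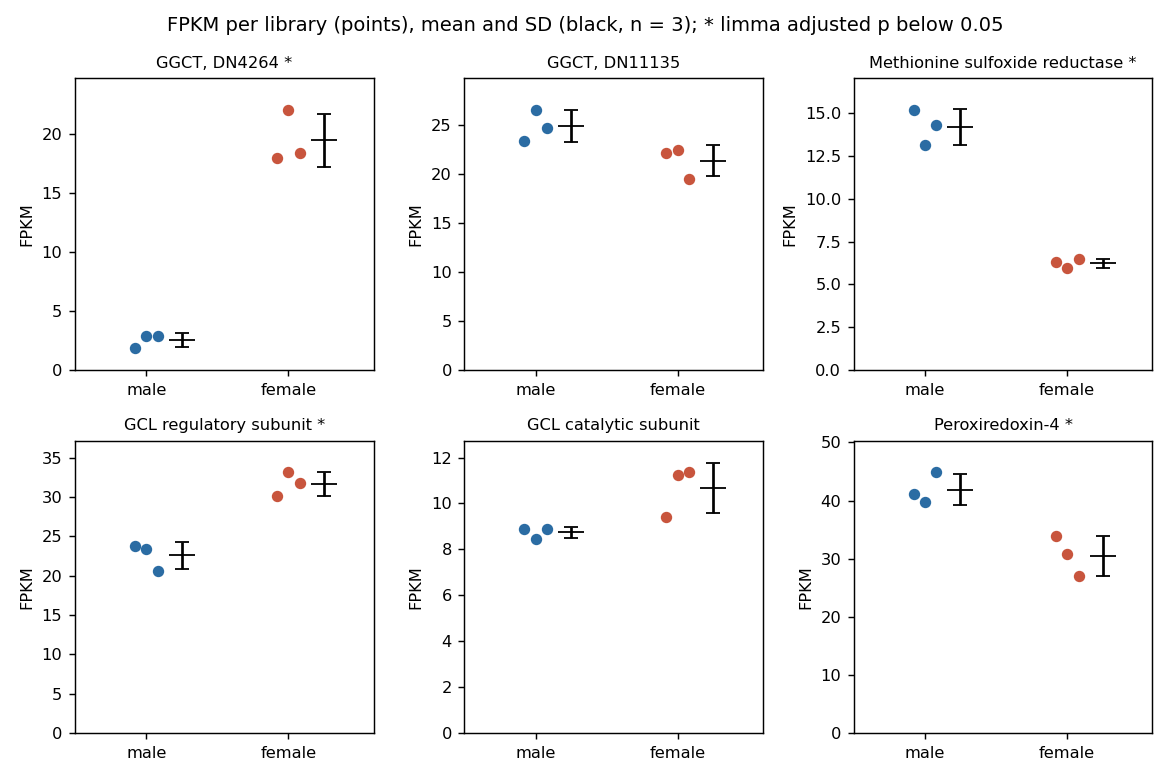
FPKM in each library (points) with the mean and SD of the 3 libraries of a sex (black) for the 4 sequences that passed the test (asterisk) and for the second gamma-glutamylcyclotransferase (GGCT) and the catalytic subunit of glutamate--cysteine ligase (GCL). DN4264 lies below 3 FPKM in the 3 males and at 17.9 or more in the 3 females, whereas DN11135 lies between 19.6 and 26.6 in all 6.

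The 6 libraries fell into a pair of sets by how often sequences whose names end in 1 or in 2 were listed at 0. Males 2 and 3 and female 2 formed one set, and male 1 and females 1 and 3 the other. No sequence of the 35198 passed for the split itself. With the split as a term in the fit, 3.23% of all sequences passed for sex, and of the 4 called here DN4264 (limma adjusted p = 0.0034) and the methionine sulfoxide reductase (limma adjusted p = 0.012) still passed. The regulatory subunit and peroxiredoxin-4 did not (limma adjusted p = 0.054 and 0.10). Within the first and the second set, in that order, the log2 difference was -2.57 and -2.72 for DN4264, 1.08 and 1.13 for the reductase, -0.57 and -0.37 for the regulatory subunit, and 0.45 and 0.43 for peroxiredoxin-4. Of the 46, 33 had the same sign in both sets.

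**Figure D4:**
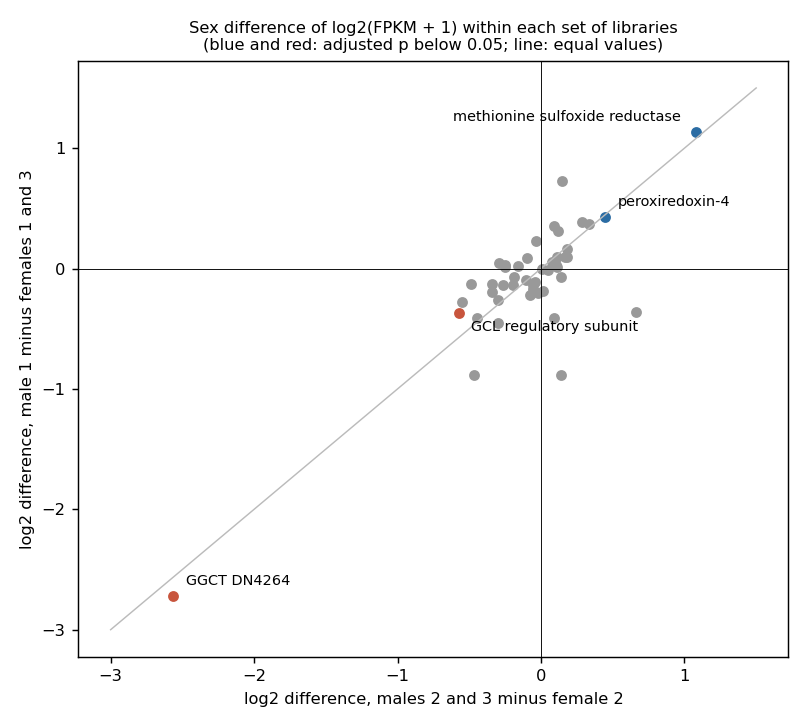
Sex difference of log2(FPKM + 1) for the 46 tested sequences within the set of males 2 and 3 and female 2 (horizontal axis) and within the set of male 1 and females 1 and 3 (vertical axis); coloured points passed the test over all 6 libraries, blue higher in males and red higher in females. The 4 coloured points lie near the line of equal values, which their choice on these same libraries favours. The gamma-glutamylcyclotransferase (GGCT) is at -2.57 and -2.72 and the reductase at 1.08 and 1.13.

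Some sequences named for eye and nerve were expressed in the heads. All 16 of the eye list (opsins, arrestins, chaoptin) were above 0 in some library, but 3 had a mean FPKM under 1. So did 9 of the 18 of the neuron list (synaptotagmin, syntaxin-1, synapsin, ELAV). The top sequence held 31.2% of the eye sum and 30.7% of the neuron sum. The eye list summed to 74.9 to 76.4 FPKM in males and 53.2 to 66.7 in females, and the neuron list to 135 to 147 and 120.2 to 126. Summed levels of several tissue lists also differed between the sexes without overlap. The fat body list of 16 sequences summed to 103 to 118 FPKM in males and 152 to 169 in females, and 3 of 15 tested passed as higher in females and 1 as higher in males. Most of the list did not share the direction of the sum: 10 of the 15 had a log2 fold change above 0 and 5 below, with a median of 0.05. Of the 3 female-high ones, an arylphorin had 0.0436 to 0.105 FPKM in males and 25.6 to 28.9 in females. A further sequence of the list, DN16751, was not female-high, with 19.7 to 20.7 FPKM in males and 15.2 to 20.8 in females. No name of the list matched hexamerin, storage protein or vitellogenin. The 54 cuticle sequences summed to 2288 to 2518 FPKM in males and 561 to 680.1 in females, with 28 of 44 tested higher in males. The gut list summed to 173.4 to 183 FPKM in males and 158 to 173.0 in females, a narrow gap. Of its 19 tested sequences, 10 had a log2 fold change above 0 and 9 below, with a median of 0.03. Of these, 3 were called higher in males and 2 in females. The testis and ovary list summed to 140.0 to 152 FPKM in males and 80.2 to 108 in females. A single sequence, DN2444 (outer dense fiber protein 3-B), held 77.8% of the last sum, and the 6 tested of that list had 3 values above 0 and 3 below, with a median of 0.01 and 1 called. Muscle and hemocyte lists overlapped between the sexes, at 1433 to 1787 FPKM and at 110.2 to 124 FPKM. The part of these tissues in the 4 differences above was not tested.

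Genes that work beside these enzymes were taken from 10 further lists, with 68 sequences in all. Of the 64 tested, 6 passed as higher in males and 6 as higher in females. As a share this was 18.75%, above the 7.11% of all tested sequences and the 12.0% of those with a protein name. It was close to the 19.0% of all sequences at a mean FPKM of 10 or more, a level that not all 64 reached. Single lists were not compared with such a share. Leaving out male 1, male 2, male 3, female 2 or female 3 left 3, 4, 6, 5 and 5 of these lists' sequences called, in place of 12, and without female 1 there were 11. Glutathione S-transferases, which join glutathione to foreign compounds, had 3 higher in males and 1 higher in females of 21. The male-high ones were all named glutathione S-transferase 1, but not every sequence of that name passed. DN5710, DN799 and DN16, also so named, were at 0.29, 0.14 and 0.07 (limma adjusted p = 0.28, 0.43 and 0.86). DN1940 had 17.4, 17.3 and 15.5 FPKM in males and 9.21, 10.1 and 9.04 in females, a difference of 0.76 on the log2 scale (SE 0.08, limma adjusted p = 0.0048), and DN5042 and DN13243 were at 0.70 and 0.58. The female-high DN16372 had 0.43, 0.56 and 0 FPKM in males and 9.0, 7.95 and 5.97 in females, a difference of -2.71 on the log2 scale (SE 0.26, limma adjusted p = 0.0040).

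Enzymes that supply NADPH, the electron source of thioredoxin reductase, had 3 of 7 called. Mitochondrial NAD(P) transhydrogenase (0.54, SE 0.07, limma adjusted p = 0.011) and mitochondrial NADP isocitrate dehydrogenase DN9846 (0.31, SE 0.05, limma adjusted p = 0.025) were higher in males. The more abundant cytoplasmic isocitrate dehydrogenase DN2983 overlapped between the sexes (0.05, SE 0.06, limma adjusted p = 0.63). So did 6-phosphogluconate dehydrogenase (0.05, limma adjusted p = 0.82). Glucose-6-phosphate dehydrogenase was at -0.13, with females above males, and did not pass (limma adjusted p = 0.25). Of the sequences named NADP-dependent malic enzyme, DN2357 was higher in females (-0.41, SE 0.05, limma adjusted p = 0.0087), at 14.8, 15.0 and 14.9 FPKM in males and 19.6, 20.1 and 20.8 in females. The other, DN153, had 9.76, 11.8 and 11.7 FPKM in males and 8.51, 7.30 and 9.33 in females, with males above females and a log2 difference of 0.37 that did not pass (limma adjusted p = 0.12). Of the 7 sequences of cysteine supply, which feeds glutathione synthesis, cystathionine gamma-lyase (-0.28, SE 0.05, limma adjusted p = 0.037) and adenosylhomocysteinase DN6559 (-0.26, SE 0.04, limma adjusted p = 0.024) were higher in females. A putative adenosylhomocysteinase 3 (0.26) and an adenosylhomocysteinase-like 1 (0.16) had positive values that did not pass (limma adjusted p = 0.25 and 0.53).

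Ferritin stores iron in a form that cannot drive the production of radicals, and 2 of its 3 sequences were higher in females. The heavy chain had 324, 312 and 337 FPKM in males and 516, 568 and 578 in females, a log2 difference of -0.77 (SE 0.07, limma adjusted p = 0.0041), and the other subunit was at -0.45 (SE 0.09, limma adjusted p = 0.044). Multidrug resistance-associated protein 4, of a family that exports glutathione conjugates, was higher in males (0.35, SE 0.07, limma adjusted p = 0.045), and the other 8 tested of its list did not pass. With the library split in the fit, 5 of the 12 still passed: the malic enzyme DN2357, the transhydrogenase, the ferritin heavy chain, DN1940 and DN16372.

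No sequence passed in the lists of glutaredoxins (5 tested), sulfiredoxin (1), glyoxalases (3), the regulators cap-n-collar, Keap1 and Maf (3) and oxidases that make superoxide or peroxide (5). By the unadjusted limma p below 0.05 there were 1, 0, 1, 0 and 1. The most abundant of each were glutaredoxin-C4 at 95 to 154 FPKM over the 6 libraries, sulfiredoxin-1, which restores overoxidised peroxiredoxins, at 15.4 to 19.3, and glyoxalase domain-containing protein 4 at 59.5 to 73.3. A cap-n-collar sequence, the insect counterpart of the stress regulator Nrf2, lay between 19.3 and 24.9 FPKM, and dual oxidase maturation factor 2 between 5.49 and 7.68.

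**Figure D5:**
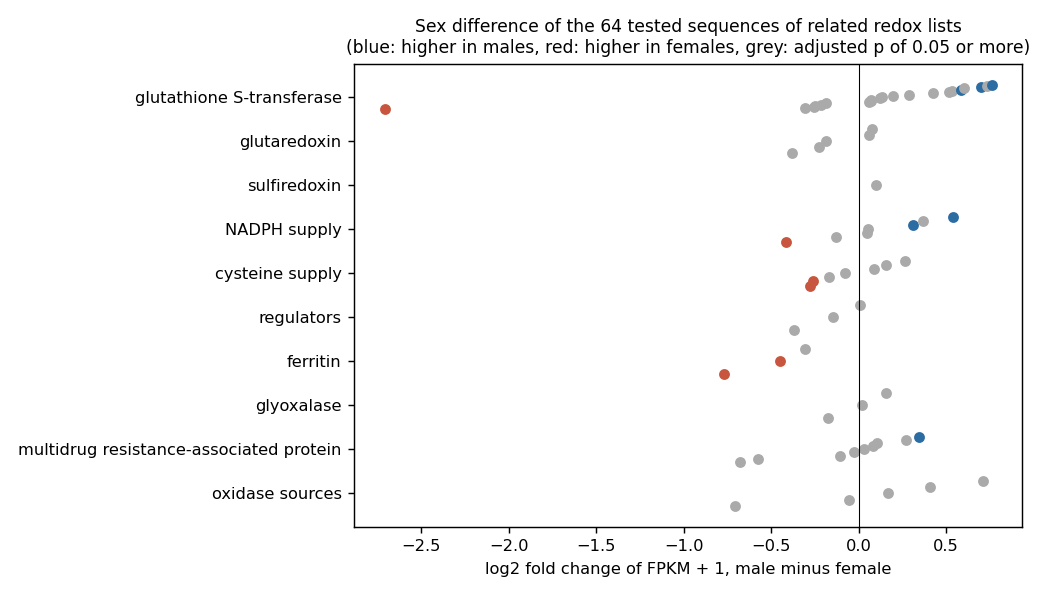
Sex difference on the log2(FPKM + 1) scale, male minus female (horizontal axis), of the 64 tested sequences of the 10 neighbouring lists; blue points are higher in males, red points higher in females and grey points did not pass. The glutathione S-transferases reach from -2.71 to 0.76, and both called ferritins lie on the female side.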

How the data were processed

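RNA sequencing of 3 male and 3 female head samples was deposited as 1 table. In it the authors gave an FPKM value per assembled sequence and library beside their annotation. Trimmomatic, HTSeq and R 3.2.0 were used in unstated roles, per the submitters' processing notes. The sources used here name no aligner and no filter. Sequence names have the Trinity form, per the file headers. Depth is unknown: low FPKM values showed no whole-read steps (at most 3.7% of their ratios fell in one window of 0.02 log2 units), so no count test or counting interval was used, and no genome or sequence was used here.

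Sequences with 1 FPKM or more in 3 or more of the 6 libraries were kept (35198). Males and females were compared on log2(FPKM + 1) by limma 3.58.1 under R 4.3.3 (mean-variance trend, two-sided, Benjamini-Hochberg over all kept, threshold 0.05). The fit was checked on simulated data. A sequence was named from NR, or from Swiss-Prot where NR was uninformative. The members and lists were chosen with earlier results of these data known. Named were each called member, the most abundant and the most different of each family, up to 3 uncalled members per direction with the lowest p, the called sequences of neighbouring lists and the most abundant of a list with none; a few others (such as the second malic enzyme and further adenosylhomocysteinases) were named after their values were seen. Alternatives were other pseudocounts, filters, scalings, array weights, a replicate block, the library split as a term, each library left out, sequences of a gene summed, other member rules and a minimum fold. Ratios were compared by exact permutation.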

Additional observations from a re-analysis of the deposited data

How the results depend on the processing

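The gamma-glutamylcyclotransferase DN4264 and the methionine sulfoxide reductase passed under all 17 alternatives run on single sequences. Summing the sequences of a gene, an alternative among them, could not change their levels, since each had its own gene identifier. Over the 40 named results the 17 alternatives gave 680 values. Of these 593 kept direction and side of the threshold, 73 lost the call, 2 gained one and 12 turned sign. Only the 4 called members and the 12 called sequences of the neighbouring lists could lose a call, and uncalled sequences that stayed uncalled count as kept. Among the called members, peroxiredoxin-4 lost its call in 8 of the 17 and the regulatory subunit in 5. The count of 4 called members became 2 with a minimum log2 fold change of 1, 2 with the library split as a term, and 2 to 4 with 1 library left out. The 12 calls of the neighbouring lists became 5 with the split and 3 to 11 with a library left out, and the 2501 over all sequences became 1136 with the split, 1031 with the minimum fold and 822 to 1776 with a library left out. Whether replicate numbers in the titles pair the samples is unknown. Deviations from the group means correlated at 0.106, 0.116 and -0.0508 for numbers 1 to 3, and at -0.184 to 0.0855 between unlike numbers. With 3 libraries per sex these values cannot decide it. With the number as a replicate block the counts were 2, 4 and 631. The sign turned only for differences near 0: thioredoxin-2 was -0.036 with median-of-ratios scaling and -0.044 to 0.157 with a library left out. Thioredoxin reductase 1 was 0.013, 0.0035 and 0.0021 with common-sum scaling, quantile normalization and the split, and -0.018 to 0.020 with a library left out. Peroxiredoxin 1 (DN120_c0_g1) was -0.048 with median-of-ratios scaling, -0.0064 with the split and -0.060 to 0.083 with a library left out. The causes were not tested. Without read totals, the precision of low FPKM values is unknown.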

Other observations

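Enzymes with other names for the same activities were looked up after the values were seen. Of 5 such sequences 4 were tested, and 0 passed limma's adjusted test, with 1 at an unadjusted p below 0.05. Glutathione hydrolase is another name for gamma-glutamyltranspeptidase, the enzyme that breaks down glutathione outside cells. Glutathione hydrolase 6 (DN715) had 9.75, 9.66 and 8.90 FPKM in males and 7.58, 7.20 and 6.66 in females. Males were above females without overlap, a log2 difference of 0.36 (SE 0.08, limma adjusted p = 0.057). Glutathione hydrolase 1 proenzyme (DN4508) had 12.5, 12.1 and 11.1 FPKM in males and 12.8, 14.5 and 12.9 in females. Methionine-R-sulfoxide reductase B1, which repairs the other stereoisomer of methionine sulfoxide, lay between 26.7 and 29.3 FPKM in all 6 libraries, beside the 2.28-fold difference of the peptide methionine sulfoxide reductase. The difference between these responses was not tested.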
